A study of Mus musculus with 10 samples.

Results

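The genes described here encode the integrins and adhesion molecules by which B cells hold on to stroma, vessel walls and T cells. They were taken by name from the deposited count table and are Itgal, Itgb2, Itga4, Itgb1, Itgb7, Icam1, Icam2 and Cd44, 8 of the 46316 genes listed, read in all 10 libraries. All 8 were among the 17718 genes with enough counts to be tested. Libraries were made from poly(A) RNA of B cells sorted from spleens of C57BL/6 mice, 3 from pBIC10, 3 from pBIC and 4 from YC. The pBIC10 mice carry p53F/F, Blimp1F/F, IKK2castopF/stopF, Cg1Cre/+ and IL-10F/F alleles, and their B220+GFP+ lymphoma is labelled as deficient in IL-10, a cytokine (2 females, 1 male). The pBIC mice have the same lymphoma alleles with an intact Il10 gene (3 females). Both model diffuse large B cell lymphoma, and the mice were moribund when the cells were taken. The YC mice carry YFPstopF/+ with Cg1Cre/+, and their B220+YFP+ cells are germinal centre B cells without lymphoma (3 females, 1 male). They were taken 10 days after the second immunisation with sheep red blood cells, the first having been given 20 days before. Whether the lymphoma mice were immunised too is not stated in the labels. The labels of the YC libraries repeat the lymphoma wording, and the series description was followed. All groups share the Cre allele, which acts in B cells once the Cγ1 locus is active, so only descendants of such cells carry the reporter. Ages were not given in the sources used here.

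Integrins are pairs of an α and a β chain, and neither chain reaches the cell surface alone. Itgal and Itgb2 encode the αL and β2 chains of LFA-1, which binds ICAM-1 and ICAM-2, the products of Icam1 and Icam2. Itga4 encodes the α4 chain, which pairs with β1 (Itgb1) in VLA-4, a receptor for VCAM-1 and fibronectin, or with β7 (Itgb7) in a receptor for MAdCAM-1. CD44 binds hyaluronan in the matrix. In the spleen LFA-1 and VLA-4 hold marginal zone B cells in place, and both bind germinal centre B cells to follicular dendritic cells.

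Libraries held 17.1 to 18.58 M counts in pBIC10, 17.8 to 19.13 M in pBIC and 12.59 to 14.33 M in YC. Levels are in CPM, counts per M after TMM scaling, and 3 counts in a single library correspond to 0.154 to 0.246 CPM. The targeted genes were read first. Trp53 stood at 36.6 to 49.7 CPM in pBIC10, 18.3 to 53.3 CPM in pBIC and 176 to 198 CPM in YC, and Prdm1, which encodes Blimp1, at 0.351 to 1.59, 5.63 to 16.3 and 16.8 to 39.6 CPM in the same order. Ikbkb, which encodes IKK2, stood at 335 to 422 CPM in pBIC10, 223 to 335 CPM in pBIC and 126 to 166 CPM in YC, and Il10 at 1.99 to 4.77, 6.84 to 19.4 and 4.23 to 9.98 CPM. Il10 was called lower in pBIC10 than in pBIC (log2 fold change -1.88 ± 0.46 SE, edgeR adjusted p = 0.00809). It was also called lower than in YC (-1.18 ± 0.44, edgeR adjusted p = 0.0371), a call lost in 7 of 17 alternative fits. Il10 reads were still present in every pBIC10 library and overlapped YC through pBIC10 replicate 3 (4.77 CPM). Counts per gene do not show whether they come from the deleted part, so they do not show the loss of IL-10. B cell markers (Cd79a, Ms4a1 and others) were present in every library, at 2643 to 4591 CPM in sum in pBIC10, 2065 to 3655 CPM in pBIC and 8278 to 10489 CPM in YC. Of these 8 markers 6 were called lower in pBIC10 and 7 in pBIC than in YC, as were 8 of 8 germinal centre markers in each lymphoma. A single heavy chain variable segment led in every library of a lymphoma group, Ighv7-3 in pBIC10 with 67.4 to 70.5% of heavy chain variable counts and Ighv8-11 in pBIC with 51.6 to 59.1%, while the leading segment held 3.73 to 10.9% in YC. Since the lymphomas of a group share their segment, clone and genotype cannot be told apart. The labels mark pBIC and YC as libraries re-analysed from an earlier series, so series and genotype cannot be told apart wherever pBIC10 is compared.

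The comparison of pBIC10 with pBIC asked how adhesion genes differ in the lymphoma with floxed Il10 alleles. Of the 8 genes, Itgal, Icam1 and Cd44 were called lower in pBIC10 (edgeR adjusted p under 0.05 over all genes tested) and 0 were called higher. Across all genes 15.1% were called lower, 15.6% higher and 30.7% in either direction. Between pBIC10 and YC, Itgal, Itgb2, Icam1 and Icam2 were called lower and Itgb1 higher, against 26.9% and 24.8% of all genes, or 51.7% in either direction. Between pBIC and YC, Itgb2 and Icam2 were called lower and Itgb1 and Cd44 higher, against 27.7% and 26.4% of all genes, or 54.1% in either direction. The shares called in either direction, 3, 5 and 4 of 8, are near those of all genes, so the sizes and the genes carry what follows rather than the counts. The median log2 fold change of the 8 genes was -0.52 in pBIC10 against pBIC, -0.62 in pBIC10 against YC and 0.19 in pBIC against YC, where the median of all genes was -0.01, 0.01 and 0.02. Libraries of the groups did not overlap for the called genes and overlapped for the others, in every comparison. That made 3, 5 and 4 genes, against 41.8%, 61.0% and 54.2% of all genes. The comparisons share groups, so their values are not independent of each other.

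**Figure D1:**
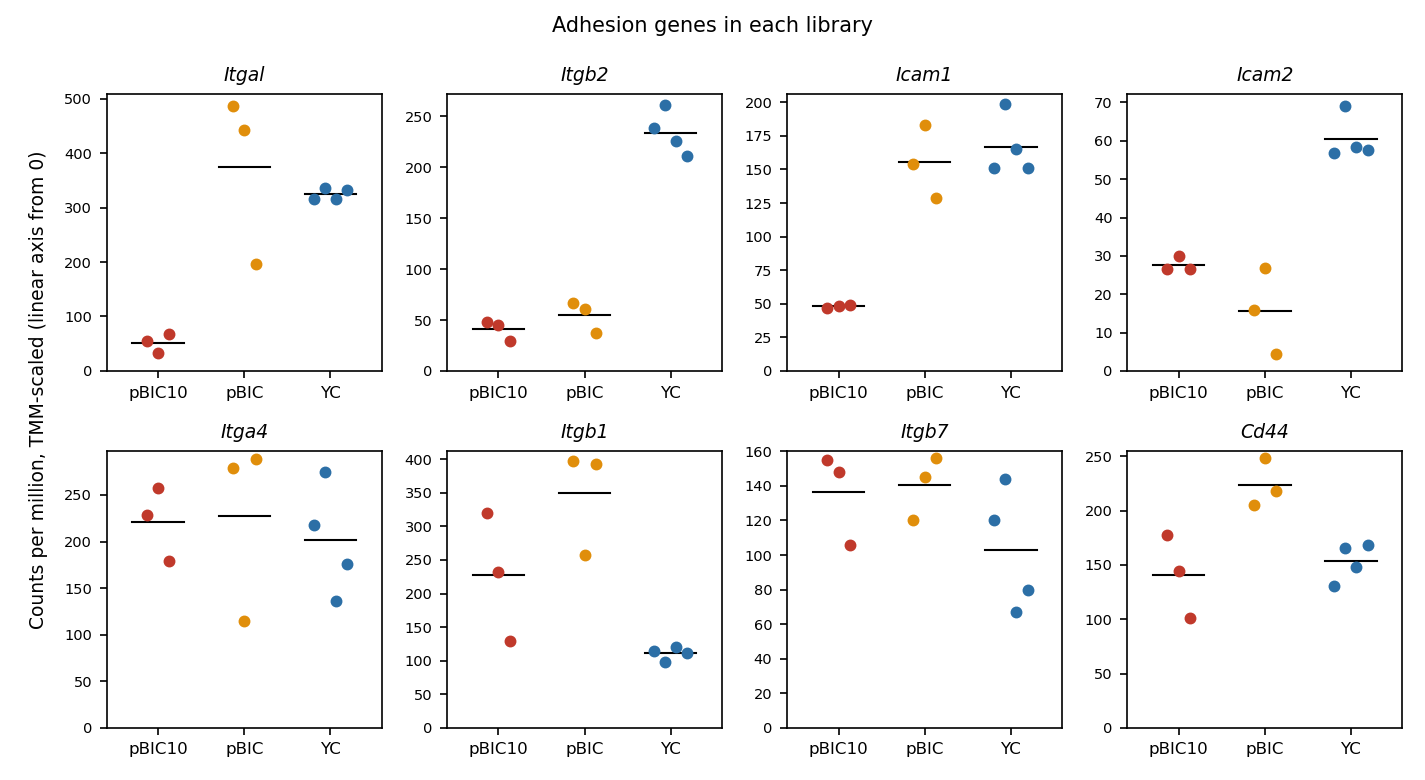
Level of each adhesion gene in each library. Points are libraries of pBIC10 (n = 3), pBIC (n = 3) and YC (n = 4), horizontal lines are group means, and the linear axis gives TMM-scaled counts per M. Itgal and Icam1 are low in pBIC10 alone, Itgb2 and Icam2 are low in both lymphomas, and Itgb1 is high in both.

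The αL chain of LFA-1 separated the lymphomas most. Itgal stood at 54.6, 32.3 and 67.9 CPM in pBIC10, at 487, 442 and 197 CPM in pBIC, against 316, 337, 315 and 333 CPM in YC. Every pBIC10 library lay below every library of the other groups, while the pBIC libraries lay on both sides of YC. In pBIC10 Itgal was 7.27-fold lower than in pBIC (log2 fold change -2.86 ± 0.33 SE, edgeR adjusted p = 6.02e-05) and 6.30-fold lower than in YC (-2.66 ± 0.32, edgeR adjusted p = 3.50e-05). Both calls held in every alternative run, with log2 fold changes between -3.16 and -2.61 against pBIC and between -2.91 and -2.40 against YC. Itgal in pBIC did not differ detectably from YC (0.21, 95% interval -0.36 to 0.77, edgeR adjusted p = 0.567).

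The β2 chain followed another pattern. Itgb2 stood at 47.6, 45.6 and 29.6 CPM in pBIC10, at 66.5, 60.6 and 37.0 CPM in pBIC, against 239, 261, 226 and 211 CPM in YC. The lymphoma libraries overlapped each other and all lay far below YC. Itgb2 was 5.73-fold lower in pBIC10 than in YC (-2.52 ± 0.24, edgeR adjusted p = 4.09e-06) and 4.28-fold lower in pBIC than in YC (-2.10 ± 0.23, edgeR adjusted p = 1.41e-05). Between pBIC10 and pBIC it was not called (-0.42, 95% interval -0.88 to 0.04, edgeR adjusted p = 0.192). Leaving out pBIC replicate 3 gave a call (-0.63, edgeR adjusted p = 0.0387). Both chains of LFA-1 were thus low in pBIC10, and of them only Itgb2 was called lower in pBIC.

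T cells, NK cells and myeloid cells also make LFA-1, and their markers moved with Itgb2 against YC and, in part, with Itgal between the lymphomas. The summed level of 13 T cell markers was 50.4 to 135 CPM in pBIC10, 55.2 to 94.6 CPM in pBIC and 365 to 638 CPM in YC, and 12 of the 13 were called lower in each lymphoma than in YC. The 13 myeloid markers summed to 31.6 to 45.5 CPM in pBIC10, 136 to 181 CPM in pBIC and 157 to 238 CPM in YC, with 10 and 7 of the 12 tested called lower than in YC. In pBIC 1 was called higher than in YC. Cd68 alone held 13.2 to 23.7 CPM in pBIC10, 100 to 117 CPM in pBIC and 26.8 to 32.8 CPM in YC. Most of the myeloid sum in pBIC was thus this gene, while Csf1r averaged 1.49, 2.21 and 25.3 CPM in the same order. The 8 NK cell markers summed to 1.08 to 4.01 CPM in pBIC10, 6.96 to 31.0 CPM in pBIC and 31.6 to 82.9 CPM in YC, with 8 and 6 called lower. Between pBIC10 and pBIC, 10 T cell, 3 NK cell and 2 myeloid markers were called lower in pBIC10, and 2 T cell markers, Lck and Il7r, were called higher. Lck stood at 36.5 to 57.7 CPM in pBIC10 and 7.66 to 25.7 CPM in pBIC, and Il7r at 6.67 to 69.3 and 0.904 to 2.04 CPM. Lck and Il7r made up most of the T cell sum in pBIC10. None of the T cell, NK cell and myeloid markers was at 0 in a whole group. Cd3e, which defines T cells, stood at 0.176 to 0.708 CPM in pBIC10, 1.18 to 1.92 CPM in pBIC and 7.92 to 27.6 CPM in YC. The part of these cells in the LFA-1 values was not tested. In bulk RNA, fewer cells that express a gene and less RNA per cell cannot be told apart. Not all markers of other cells were lower in pBIC10. The 6 erythroid markers summed to 630 to 1628 CPM in pBIC10, 32.2 to 662 CPM in pBIC and 184 to 543 CPM in YC. Of these, 3 were called higher in pBIC10 than in YC and 0 lower.

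Within each library the counts of Itgal and Itgb2 were set against each other, which needs no scaling between libraries. The log2 ratio of Itgal to Itgb2 was 0.20, -0.50 and 1.20 in pBIC10, 2.87, 2.86 and 2.41 in pBIC, and 0.40, 0.37, 0.48 and 0.66 in YC. The pBIC libraries lay above all others, while pBIC10 libraries lay on both sides of YC. The difference of means was 2.24 log2 units for pBIC against YC (exact two-sided permutation p = 0.0571, 0.171 adjusted over 15 ratio tests) and -2.42 for pBIC10 against pBIC (exact permutation p = 0.100, adjusted 0.190). These are the smallest p-values that 3 against 4 and 3 against 3 libraries can give. Between pBIC10 and YC the means differed by -0.18, with overlapping libraries (exact permutation p = 0.629, adjusted 0.674).

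The ligands of LFA-1 were unequal in the same way. Icam1 stood at 47.1, 48.0 and 49.0 CPM in pBIC10, at 154, 183 and 129 CPM in pBIC, against 151, 199, 165 and 151 CPM in YC. The pBIC10 libraries had a coefficient of variation of 1.96% and all lay below the other groups, which overlapped each other. Icam1 was 3.23-fold lower in pBIC10 than in pBIC (-1.69 ± 0.18, edgeR adjusted p = 2.00e-05) and 3.46-fold lower than in YC (-1.79 ± 0.17, edgeR adjusted p = 4.62e-06). It was not called between pBIC and YC (-0.10, 95% interval -0.41 to 0.22, edgeR adjusted p = 0.629). IKK2, whose active form both lymphomas carry, is the kinase that releases NF-kB, and Icam1 is a known target of NF-kB.

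Because Icam1 was low in 1 of the lymphomas with that allele, the 250 bases before its start site are shown, with the match to a binding motif of NF-kB in capitals (RefSeq, GRCm38.p6, chr9:21015690-21015939, plus strand, 5′ to 3′).
Icam1: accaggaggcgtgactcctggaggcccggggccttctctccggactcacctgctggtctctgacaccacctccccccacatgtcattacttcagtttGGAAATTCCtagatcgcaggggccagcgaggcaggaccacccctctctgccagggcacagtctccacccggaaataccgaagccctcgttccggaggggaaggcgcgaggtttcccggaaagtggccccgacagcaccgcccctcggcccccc
The capitals match GGAAATTCC, a form of the NF-kB motif, 153 to 145 bases before the start. Searched on both strands, GGAAATTCC was found in 0.286% of 32851 promoter windows of this length. The NF-kB site first described in the kappa light chain enhancer (0.140% of windows) and the interferon regulatory factor repeat (2.98%) were searched as well and were not in the window. The table held promoters of 5 of the 8 genes, and those of Itga4, Itgb1, Itgb7 and Cd44 had no match to any of the 3 motifs. A match is a string of letters and shows no binding.

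Icam2, which B cells, endothelium and platelets make without stimulation, was lower in both lymphomas. It stood at 26.6, 29.9 and 26.7 CPM in pBIC10, at 15.9, 26.9 and 4.39 CPM in pBIC, against 56.9, 69.1, 58.3 and 57.5 CPM in YC. All lymphoma libraries lay below YC, and those of pBIC spread over a 6.13-fold range. Icam2 was 3.84-fold lower in pBIC than in YC (-1.94 ± 0.43, edgeR adjusted p = 0.00288). In pBIC10 it was 2.18-fold lower than in YC (-1.12 ± 0.42, edgeR adjusted p = 0.0407), and this call was lost in 8 of 17 alternatives, among them without any 1 of the pBIC10 libraries (edgeR adjusted p of 0.0913 to 0.113) and without YC replicate 2, 3 or 4 (0.0571 to 0.0754). Between pBIC10 and pBIC it was not called (0.82, 95% interval -0.05 to 1.68, edgeR adjusted p = 0.185), and leaving out pBIC replicate 2 gave a call (1.41, edgeR adjusted p = 0.0273). Of 6 platelet markers, 5 were called lower than in YC in each lymphoma, among them Ppbp, at up to 0.351 CPM in pBIC10, up to 0.113 CPM in pBIC and 3.4 to 21.6 CPM in YC. Markers of endothelium and stroma were mixed. Kdr, Cldn5 and Ccl21a were at 0 in pBIC10 and near 0 elsewhere, averaging at most 0.0357 CPM in pBIC and 0.268 CPM in YC. Cdh5 stood at 1.28 to 4.39 CPM in pBIC10, 0.0565 to 1.34 CPM in pBIC and 1.27 to 3.04 CPM in YC. Egfl7 stood at 7.38 to 10.8 CPM in pBIC10, 2.41 to 9.69 CPM in pBIC and 0.148 to 0.499 CPM in YC. The 12 markers summed to 97.2 to 120 CPM in pBIC10, 108 to 127 CPM in pBIC and 260 to 292 CPM in YC, where Cr2, which B cells also make, held 175 to 200 CPM. Of the 5 tested, 2 were called higher in pBIC10 than in pBIC, 1 was higher and 1 lower in pBIC10 than in YC, and 1 was higher and 2 lower in pBIC than in YC. The part of platelets and endothelium in the Icam2 values was not tested.

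The log2 ratio of Icam1 to Icam2 was 0.82, 0.68 and 0.88 in pBIC10, 3.28, 2.76 and 4.87 in pBIC, and 1.41, 1.52, 1.5 and 1.39 in YC. The 3 groups did not overlap, with pBIC highest and pBIC10 lowest. The difference of means was -2.84 for pBIC10 against pBIC (exact permutation p = 0.100, adjusted 0.190), -0.66 for pBIC10 against YC and 2.18 for pBIC against YC (exact permutation p = 0.0571 and adjusted 0.171 for each).

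**Figure D2:**
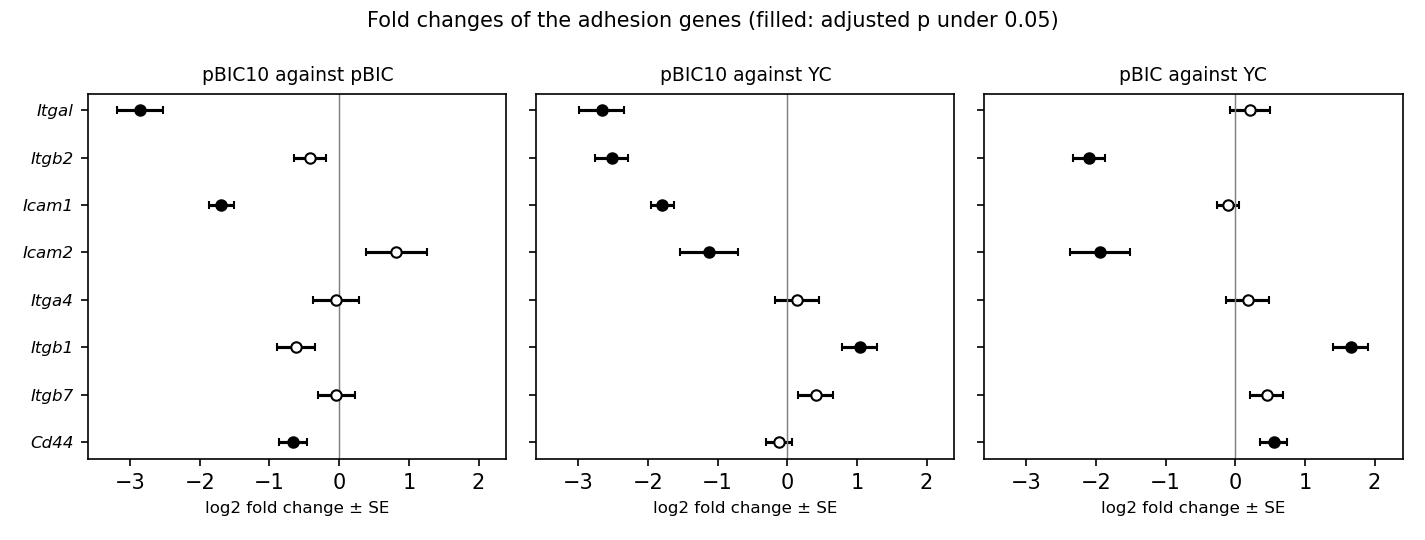
Log2 fold change (x axis, edgeR estimate ± SE) of each adhesion gene in the 3 comparisons, with filled points for an adjusted p under 0.05. Itgal and Icam1 lie far left of 0 in both comparisons of pBIC10 and near 0 in pBIC against YC, where Itgb1 lies furthest right (1.66).

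The shared α4 chain did not differ detectably between the groups. Itga4 stood at 228, 257 and 179 CPM in pBIC10, at 279, 115 and 289 CPM in pBIC, against 218, 275, 136 and 176 CPM in YC. The groups overlapped in every comparison, and pBIC replicate 2 had the lowest value of all libraries. Log2 fold changes were -0.04 in pBIC10 against pBIC (95% interval -0.69 to 0.61), 0.14 in pBIC10 against YC (-0.47 to 0.74) and 0.18 in pBIC against YC (-0.43 to 0.78), with edgeR adjusted p of 0.944, 0.737 and 0.649.

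Its β1 partner was higher in both lymphomas. Itgb1 stood at 320, 232 and 130 CPM in pBIC10, at 398, 257 and 393 CPM in pBIC, against 114, 97.9, 120 and 112 CPM in YC. All lymphoma libraries lay above YC, with pBIC10 replicate 3, from the male, closest to it. Itgb1 was 2.05-fold higher in pBIC10 than in YC (1.04 ± 0.25, edgeR adjusted p = 0.00410) and 3.15-fold higher in pBIC than in YC (1.66 ± 0.25, edgeR adjusted p = 1.67e-04). Between pBIC10 and pBIC it was not called (-0.62, 95% interval -1.15 to -0.08, edgeR adjusted p = 0.104), but it was called lower in pBIC10 without pBIC10 replicate 1 (-0.94, edgeR adjusted p = 0.0261) or pBIC replicate 2 (-0.83, edgeR adjusted p = 0.0468).

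The β7 chain showed no call. Itgb7 stood at 155, 148 and 106 CPM in pBIC10, at 120, 145 and 156 CPM in pBIC, against 120, 144, 67.3 and 80.0 CPM in YC. The groups overlapped, and the lowest values were from YC replicates 3 and 4. Log2 fold changes were -0.04 in pBIC10 against pBIC (95% interval -0.56 to 0.47), 0.41 in pBIC10 against YC (-0.07 to 0.89) and 0.45 in pBIC against YC (-0.03 to 0.93), with edgeR adjusted p of 0.926, 0.181 and 0.137. Without YC replicate 2, Itgb7 was called higher in pBIC than in YC (0.62, edgeR adjusted p = 0.0457).

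Set against its partners, Itga4 had a log2 ratio to Itgb1 of -0.49, 0.14 and 0.46 in pBIC10, of -0.51, -1.16 and -0.44 in pBIC, and of 0.94, 1.49, 0.18 and 0.65 in YC. The pBIC libraries lay below all YC libraries, with a difference of means of -1.52 (exact permutation p = 0.0571, adjusted 0.171), and pBIC10 lay between and overlapped both. The ratio of Itga4 to Itgb7 averaged 0.70 ± 0.13 in pBIC10 (SD, n = 3), 0.59 ± 0.82 in pBIC (n = 3) and 0.99 ± 0.12 in YC (n = 4). The pBIC10 libraries lay below YC for it (difference of means -0.29, exact permutation p = 0.0571, adjusted 0.171), and pBIC overlapped both. That of Itgb7 to Itgb1 averaged -0.67 ± 0.37, -1.30 ± 0.46 and -0.17 ± 0.61. The Itgb7 to Itgb1 ratio overlapped between the groups in every comparison, and no ratio test of the 15 could reach 0.05 with these numbers of libraries.

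**Figure D3:**
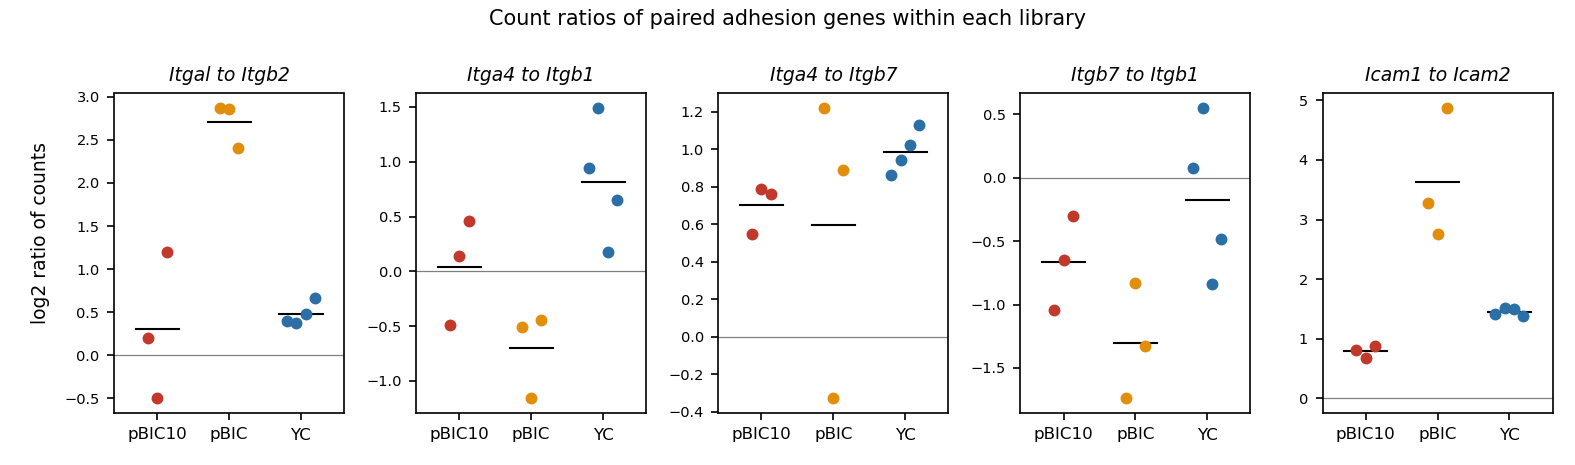
Log2 ratio of the counts of 2 genes within each library for 5 pairs of chains or ligands. Points are libraries of pBIC10, pBIC and YC, and horizontal lines are group means. Itgal to Itgb2 and Icam1 to Icam2 are highest in pBIC, and Itga4 to Itgb1 is lower in pBIC than in YC.

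Cd44, a receptor whose level rises with activation in lymphocytes, was highest in pBIC. It stood at 178, 144 and 101 CPM in pBIC10, at 205, 248 and 218 CPM in pBIC, against 131, 166, 148 and 168 CPM in YC. The pBIC libraries lay above all others, and those of pBIC10 lay on both sides of YC. Cd44 was lower in pBIC10 than in pBIC (-0.66 ± 0.20, edgeR adjusted p = 0.0242), a call lost among females alone (-0.47, edgeR adjusted p = 0.113) and without pBIC10 replicate 2 or 3 or pBIC replicate 2 (0.0697, 0.0958 and 0.0522). It was 1.46-fold higher in pBIC than in YC (0.55 ± 0.19, edgeR adjusted p = 0.0253), a call lost without YC replicate 1 or 3 (0.0890 and 0.0602) and with sex as a covariate (0.0551). Between pBIC10 and YC it was not called (-0.12, 95% interval -0.49 to 0.25, edgeR adjusted p = 0.624). Counts are per gene and do not separate the splice forms of Cd44.

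To compare levels between genes, CPM were divided by the exon length of each gene in kb. In YC the order was Itgb2 (78.9 ± 7.11 CPM per kb, SD, n = 4), Icam1 (65.6 ± 8.95), Itgal (51.0 ± 1.83), Icam2 (47.2 ± 4.52), Itgb7 (38.3 ± 13.2), Itgb1 (29.0 ± 2.43), Cd44 (27.1 ± 3.07) and Itga4 (20.6 ± 6.09). Only the step from Icam1 to Itgal had no overlap between libraries. In pBIC10 the same order by level per kb ran Itgb1 (59.7 ± 24.9, n = 3), Itgb7 (50.8 ± 10.0), Cd44, Itga4, Icam2, Icam1, Itgb2 (13.8 ± 3.31) and Itgal (8.08 ± 2.82), with no overlap at the steps from Itgb7 to Cd44, Icam2 to Icam1 and Icam1 to Itgb2. In pBIC Itgb1 again led (91.6 ± 21.0), followed by Icam1 (61.3 ± 10.6), Itgal (58.8 ± 24.5), Itgb7 (52.3 ± 7.00), Cd44, Itga4, Itgb2 and Icam2 (12.3 ± 8.78), and libraries did not overlap at the steps from Itgb7 to Cd44 and from Cd44 to Itga4. The LFA-1 chains thus took the top and the third place by level per kb in YC, the last places in pBIC10, and the third and the seventh in pBIC.

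The libraries of a lymphoma group did not move together for all genes. Among the pBIC10 libraries, replicate 3, the male, had the lowest Itga4, Itgb1, Itgb2, Itgb7 and Cd44 and the highest Itgal and Icam1. Among the pBIC libraries, replicate 3 had the lowest Itgal, Itgb2, Icam1 and Icam2, and replicate 2 the lowest Itga4 and Itgb1. The coefficient of variation in YC was 3.59% for Itgal and 34.5% for Itgb7.

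For each gene, the named genes of at least 5 CPM with the closest pattern over the 10 libraries, immunoglobulin genes left out, were found by the root mean square difference of log2 CPM, centred on each gene's mean. Cd44 was closest to Sh3bp5 (0.13) and Itga4 to Zfp217 (0.16). Icam1 was closest to Ppm1m and Triobp (0.18 each) and Icam2 to Stn1 (0.18). Itgb2 was closest to Lax1, a membrane adaptor of lymphocytes (0.20), and Itgb7 to Gdpgp1 (0.20). Itgal was closest to Ly75, which encodes the endocytic receptor DEC-205 (0.25). Ly75 averaged 8.36 CPM in pBIC10, 55.2 CPM in pBIC and 54.9 CPM in YC. Next for Itgal was Tnfsf9, the ligand of a T cell costimulator (0.32). The closest to Itgb1 were Lacc1 and Fbxl4 (0.27 each).

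The ligands of the α4 integrins were each high in a single group. Madcam1, the ligand of the α4 and β7 pair, stood at 0.0590, 0 and 0.718 CPM in pBIC10, at 30.0, 87.8 and 25.0 CPM in pBIC, against 0.0741, 0.491, 1.06 and 0.214 CPM in YC. It was thus near the limit of detection outside pBIC, where every library held it. Its log2 fold change was -7.40 ± 0.97 in pBIC10 against pBIC (edgeR adjusted p = 1.89e-04) and 6.66 ± 0.82 in pBIC against YC (edgeR adjusted p = 5.72e-05), and it was not called in pBIC10 against YC (-0.74, edgeR adjusted p = 0.589). With counts this near 0 the size is loosely set. Against pBIC it was -10.31 without pBIC10 replicate 3 and -6.64 without pBIC replicate 2, and over all alternatives it lay between -10.32 and -6.64. For pBIC against YC it was 5.93 without pBIC replicate 2 and 7.50 without YC replicate 3, and at most 7.81. Vcam1, the ligand of VLA-4, stood at 2.12, 1.23 and 1.59 CPM in pBIC10, at 1.72, 8.31 and 1.93 CPM in pBIC, against 30.4, 28.0, 18.7 and 30.7 CPM in YC. All lymphoma libraries lay below YC (-4.03 ± 0.55 in pBIC10, edgeR adjusted p = 9.05e-05, and -2.76 ± 0.51 in pBIC, edgeR adjusted p = 7.18e-04). Without pBIC replicate 2, the highest of the lymphoma libraries, the value in pBIC was -3.82. Between pBIC10 and pBIC Vcam1 was not called (-1.27, edgeR adjusted p = 0.0924). Vcam1 is made mainly by stroma and macrophages. The myeloid marker sums given for LFA-1 overlapped between pBIC (136 to 181 CPM) and YC (157 to 238 CPM) and were lower in pBIC10 (31.6 to 45.5 CPM). Most of the sum in pBIC was Cd68 (100 to 117 CPM, against 26.8 to 32.8 CPM in YC). Of the 12 tested myeloid markers, 7 were called lower in pBIC than in YC and 1 higher. Csf1r and Adgre1 averaged 2.21 and 1.31 CPM in pBIC, against 25.3 and 9.7 CPM in YC. Markers of endothelium and stroma were mixed, as given for Icam2. The part of stroma and macrophages in the Vcam1 values was not tested.

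Cdh17, a cadherin of gut and of B cells, stood at 21.2, 9.55 and 7.84 CPM in pBIC10, at 230, 134 and 223 CPM in pBIC, against 7.93, 9.58, 10.3 and 9.34 CPM in YC. Only the pBIC libraries were high, with -3.93 ± 0.36 in pBIC10 against pBIC (edgeR adjusted p = 1.07e-05) and 4.40 ± 0.33 in pBIC against YC (edgeR adjusted p = 1.27e-06). L1cam, a homophilic adhesion molecule that also binds integrins, averaged 8.90 ± 3.93 CPM in pBIC10, 0.808 ± 0.787 CPM in pBIC and 9.24 ± 1.55 CPM in YC (3.44 ± 0.57 in pBIC10 against pBIC, edgeR adjusted p = 6.33e-04, and 4.61 without pBIC replicate 3). Cd9, a tetraspanin that associates with integrins, rose in both lymphomas against YC (2.41 ± 0.30 in pBIC10 and 1.96 ± 0.30 in pBIC, edgeR adjusted p of at most 1.55e-04), while Cd82, another tetraspanin, was lower in both (-3.65 ± 0.30 in pBIC10 and -1.95 ± 0.28 in pBIC, edgeR adjusted p of at most 9.66e-05).

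Counted over the list of ligands, selectins and other adhesion molecules (32 genes, 27 tested), 6 were called higher and 4 lower in pBIC10 against pBIC, 8 and 8 in pBIC10 against YC, and 6 and 8 in pBIC against YC. Median log2 fold changes were -0.05, -0.05 and -0.30, beside -0.01, 0.01 and 0.02 over all genes. Over all genes 30.7%, 51.7% and 54.1% were called in either direction. By direction, 15.6% were called higher and 15.1% lower in pBIC10 against pBIC, and 24.8% and 26.9% in pBIC10 against YC. In pBIC against YC these shares were 26.4% and 27.7%. DESeq2 called 7 lower in pBIC10 against pBIC. Some of the 27 passed the filter through 1 group, which fixed the direction in which they could be called. Thbs1 averaged 0.385 CPM in pBIC10, 0.0546 CPM in pBIC and 4.97 CPM in YC, and could only be called lower against YC. Sele averaged 1.46, 0.0744 and 0.0888 CPM, and could only be called higher in pBIC10. Such genes tilt the counts and medians.

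Of 21 further integrin subunits, 15 were tested, and more were called lower than higher against YC. In pBIC10 11 were called lower than in YC and 2 higher, with a median log2 fold change of -1.94, and in pBIC 9 were lower and 0 higher, with a median of -1.35. Over all genes 26.9% were called lower and 24.8% higher in pBIC10 against YC, and 27.7% and 26.4% in pBIC against YC, with medians of 0.01 and 0.02. Some of the 15 passed the filter through YC alone, so against YC they could only be called lower. Itga9 averaged 0.0929 CPM in pBIC10, 0.0912 CPM in pBIC and 2.04 CPM in YC, and Itga5 0.132, 0.221 and 1.22 CPM. Such genes tilt the counts and medians against YC downward. Without YC replicate 4 the 9 lower in pBIC became 5. The 2 higher in pBIC10 became 1 without pBIC10 replicate 3 or YC replicate 2, 3 or 4, and 0 among females. Between pBIC10 and pBIC 2 were higher and 2 lower (30.7% of all genes in either direction), with a median of -0.48 beside -0.01 over all genes. Those 2 lower became 1 without pBIC10 replicate 1 or 2 or pBIC replicate 1, and 0 with only the 2 groups fitted. Itgax, the αX chain of dendritic cells and some B cells, averaged 1.06 ± 0.217 CPM in pBIC10, 2.23 ± 1.63 CPM in pBIC and 15.3 ± 5.40 CPM in YC (-3.84 ± 0.58 and -2.78 ± 0.54 against YC, edgeR adjusted p of at most 8.89e-04). The falls against YC went with the lower T cell and NK cell marker sums given for LFA-1, and in pBIC10 with the lower myeloid sum. In pBIC the myeloid sum, most of it Cd68, overlapped YC. Of the 12 tested myeloid markers, 7 were called lower in pBIC than in YC and 1 higher. Itgax and Itgam are in the myeloid marker list and among these subunits, so those readings share genes. Itga2b, also among the subunits called lower in both lymphomas, averaged 0.823 CPM in pBIC10, 0.849 CPM in pBIC and 8.59 CPM in YC. It is in the platelet marker list too, where 5 of 6 were called lower than in YC in each lymphoma. The part of T cells, NK cells, myeloid cells and platelets was not tested.

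The subunits that rose in pBIC10 were Itgb3 and Itga6. Itgb3, the β3 chain of the vitronectin receptor, stood at 76.3, 66.2 and 82.2 CPM in pBIC10, at 18.8, 10.7 and 34.7 CPM in pBIC, against 46.0, 24.1, 33.5 and 30.3 CPM in YC. The pBIC10 libraries lay above all others (1.81 ± 0.36 against pBIC, edgeR adjusted p = 0.00241, and 1.16 ± 0.32 against YC, edgeR adjusted p = 0.00941), and the call against YC was lost among females alone (1.10, edgeR adjusted p = 0.0546). Platelets carry β3 as well. Their marker Pf4 stood at 0.103 to 0.295 CPM in pBIC10, 0 to 0.0565 CPM in pBIC and 0.141 to 2.3 CPM in YC. Gp9 stood at 0.176 to 0.256, 0 to 0.0565 and 0.141 to 3.48 CPM in the same order. The list of 6 platelet markers holds Itgb3 itself, the only 1 called higher in pBIC10 than in pBIC or YC. The part of platelets in the Itgb3 values was not tested. Itgav, the αV partner of β3, averaged 12.1 ± 1.49 CPM in pBIC10, 20.9 ± 4.77 CPM in pBIC and 23.3 ± 4.36 CPM in YC, lower in pBIC10 than in YC (-0.94 ± 0.23, edgeR adjusted p = 0.00406). Its lower level against pBIC (-0.79 ± 0.24, edgeR adjusted p = 0.0250) was not called in 8 of 16 alternatives, among them without any 1 of the pBIC10 libraries or without pBIC replicate 1 or 3 (0.0505 to 0.0895). Itga6, the α6 chain of laminin receptors, stood at 24.1, 26.9 and 63.1 CPM in pBIC10, at 10.2, 5.2 and 12.9 CPM in pBIC, against 25.1, 16.5, 14.2 and 20.9 CPM in YC. It was higher in pBIC10 than in pBIC (2.01 ± 0.41, edgeR adjusted p = 0.00300). Against YC its higher level rested on pBIC10 replicate 3 (0.99 ± 0.37, edgeR adjusted p = 0.0390, and 0.43, edgeR adjusted p = 0.311 without it), and it was also lost without YC replicate 2, 3 or 4 (0.0666 to 0.0991).

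**Figure D4:**
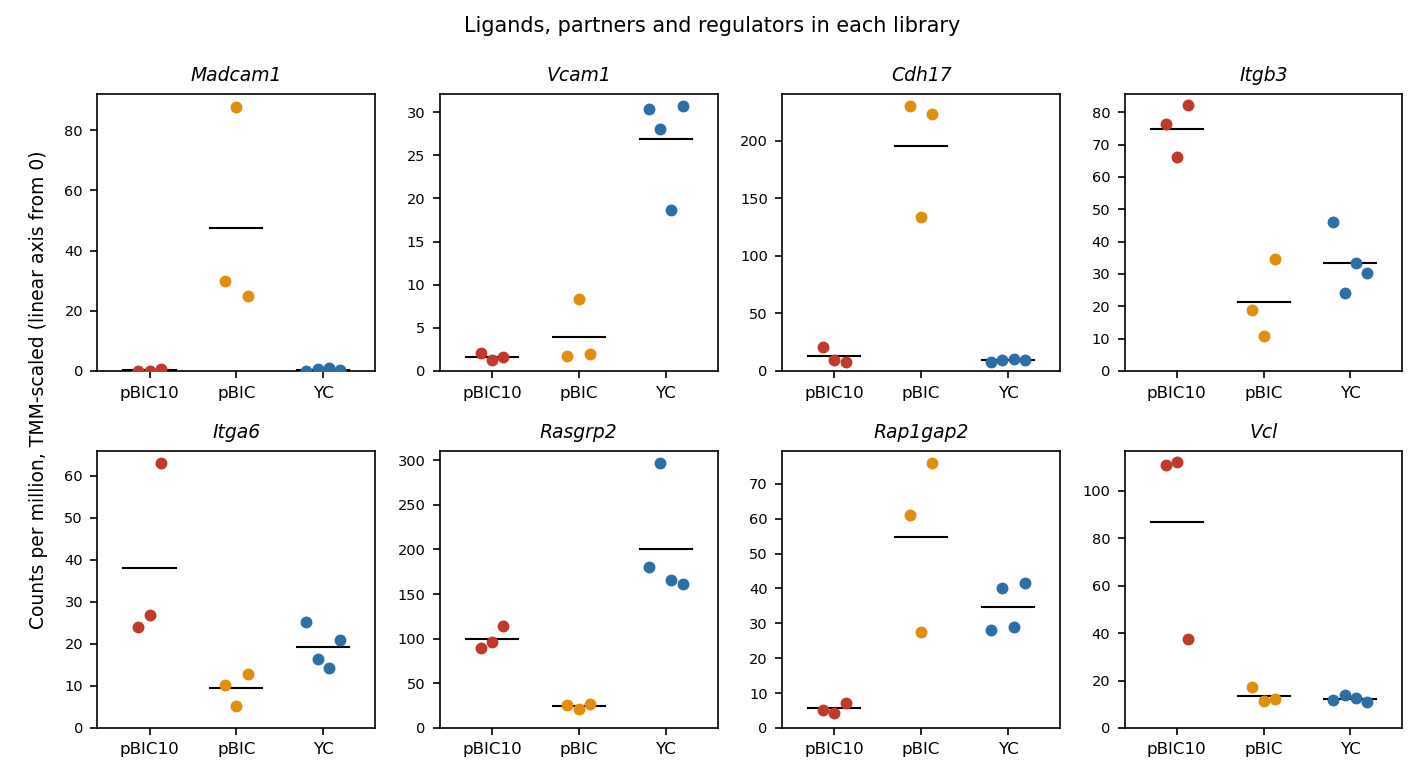
Level of 8 ligands, further chains and regulators in each library of pBIC10 (n = 3), pBIC (n = 3) and YC (n = 4). Horizontal lines are group means, and the linear axis gives TMM-scaled counts per M. Madcam1 and Cdh17 are high in pBIC alone, Itgb3 is highest in pBIC10, and Vcam1 is high in YC alone.

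Integrins bind tightly only after talin and kindlin reach the β tail, which the small GTPase Rap1 controls. Of 41 genes of this activation and linkage machinery 38 were tested, and 12 were called higher and 9 lower in pBIC10 against pBIC, 7 and 20 in pBIC10 against YC, and 5 and 19 in pBIC against YC, where 30.7%, 51.7% and 54.1% of all genes were called in either direction. Over all genes 15.6% were called higher and 15.1% lower in pBIC10 against pBIC, and 24.8% and 26.9% in pBIC10 against YC. In pBIC against YC these shares were 26.4% and 27.7%. Without pBIC replicate 2 the 5 higher in pBIC against YC became 9. Skap1 averaged 0.254 CPM in pBIC10, 0.361 CPM in pBIC and 9.9 CPM in YC. It passed the filter through YC and could only be called lower against it. Median log2 fold changes were -0.07, -0.51 and -0.39, beside -0.01, 0.01 and 0.02 over all genes. Rap1 regulators went both ways between the lymphomas. Rasgrp2, which loads Rap1 with GTP, stood at 89.9, 96.2 and 114 CPM in pBIC10, at 26.2, 21.1 and 27.3 CPM in pBIC, against 180, 297, 166 and 161 CPM in YC. It was lower in both lymphomas than in YC and 2.01 ± 0.24 log2 units higher in pBIC10 than in pBIC (edgeR adjusted p = 5.38e-05). Rapgef1, another exchange factor, was lower in pBIC10 than in pBIC (271 ± 48.6 and 820 ± 192 CPM, -1.60 ± 0.20, edgeR adjusted p = 7.00e-05). Rap1gap2, which turns Rap1 off, averaged 5.58 ± 1.47 CPM in pBIC10 and 54.9 ± 24.8 CPM in pBIC (-3.29 ± 0.36, edgeR adjusted p = 2.94e-05). Sipa1, another inactivator of Rap1, averaged 112 ± 15.6 CPM in pBIC10, 68.9 ± 7.38 CPM in pBIC and 938 ± 146 CPM in YC (-3.06 ± 0.19 and -3.77 ± 0.19 against YC, edgeR adjusted p of at most 2.08e-07).

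Proteins that tie integrins to actin differed as well. Zyx, which encodes zyxin of focal adhesions, averaged 2.39 ± 0.287 CPM in pBIC10, 3.37 ± 0.939 CPM in pBIC and 71.7 ± 24.0 CPM in YC (-4.90 ± 0.34 and -4.41 ± 0.32 against YC, edgeR adjusted p of at most 7.95e-07). Vcl, which encodes vinculin, stood at 111, 112 and 37.4 CPM in pBIC10, at 17.2, 11.4 and 12.4 CPM in pBIC, against 11.6, 13.8, 12.6 and 11.1 CPM in YC. All pBIC10 libraries lay above the others (2.67 ± 0.35 against pBIC and 2.82 ± 0.32 against YC, edgeR adjusted p of at most 1.42e-04), with replicate 3 the lowest of them.

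Among 20 partners of CD44 and genes of hyaluronan, 15 were tested, with 4 called higher and 4 lower in pBIC10 against pBIC, 2 and 8 in pBIC10 against YC, and 2 and 6 in pBIC against YC, where 30.7%, 51.7% and 54.1% of all genes were called in either direction. By direction, 15.6% of all genes were called higher and 15.1% lower in pBIC10 against pBIC, and 24.8% and 26.9% in pBIC10 against YC. In pBIC against YC these shares were 26.4% and 27.7%. The 4 higher in pBIC10 against pBIC became 2 without pBIC10 replicate 1. The 2 higher in pBIC10 against YC became 1 without pBIC10 replicate 1 or 2 or YC replicate 2 or 4, with RLE scaling, with DESeq2 and with the stricter filter. Median log2 fold changes were 0.27, -0.97 and -0.40, beside -0.01, 0.01 and 0.02 over all genes. Some of these genes passed the filter through 1 group, which fixed the direction in which they could be called. Stab2 averaged 0.167 CPM in pBIC10, 0.0903 CPM in pBIC and 2.3 CPM in YC, and could only be called lower against YC. Esrp2, called higher in pBIC10 than in pBIC, averaged 0.911, 0.184 and 0.344 CPM. Such genes tilt the counts and medians. The proteins that link CD44 and ICAMs to actin did not move together. Rdx, which encodes radixin, averaged 145 ± 16.2 CPM in pBIC10, 178 ± 2.98 CPM in pBIC and 36.9 ± 0.839 CPM in YC (1.98 ± 0.14 and 2.26 ± 0.14 against YC, edgeR adjusted p of at most 4.53e-07). Its relative Ezr, which encodes ezrin, averaged 587 ± 103 CPM in pBIC10, 277 ± 3.87 CPM in pBIC and 441 ± 81.2 CPM in YC, higher in pBIC10 than in pBIC (1.08 ± 0.19, edgeR adjusted p = 8.44e-04) and lower in pBIC than in YC (-0.67 ± 0.18, edgeR adjusted p = 0.00606). Msn, which encodes moesin, went the same way as Ezr in both, by 0.73 ± 0.19 (edgeR adjusted p = 0.0118) and -0.65 ± 0.18 (edgeR adjusted p = 0.00828), and its first call was lost without pBIC10 replicate 1 (0.61, edgeR adjusted p = 0.0568).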

How the data were processed

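Poly(A) RNA of sorted splenic B cells was read as single-end reads, per the labels' protocols. The deposited values are the authors' unnormalized counts of reads per gene, made with FastQC and featureCounts on GRCm39, per the submitters' processing notes. The aligner, annotation and strand setting are not stated there. Without strand, reads of Itga4 and of its antisense neighbour Cerkl (a mean of 16.8 to 20.7 counts per group) cannot be told apart, nor those of Icam1 and its antisense neighbour Gm47079, not analysed here.

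The filter was filterByExpr and the scaling TMM. This filter kept genes with enough counts in as few libraries as the smallest group holds. A listed gene near 0 in both lymphomas was thus tested only if high in YC, and could only be called lower against it. A robust quasi-likelihood fit in edgeR 4.0.16 (R 4.3.3) took the 10 libraries together, 1 coefficient for each group. A gene was called at a Benjamini-Hochberg adjusted p under 0.05 over the 17718 genes tested. The SE is the log2 fold change divided by the square root of F, and intervals are 1.96 SE each way. P-values measure the spread between these mice, which within a lymphoma group may share a clone. Ratios used counts with 0.5 added. Exon lengths came from GENCODE M21 (GRCm38) and promoters from RefSeq.

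The genes, the 4 pathway lists and the 9 marker lists were chosen with earlier results of these data known. Named genes were the 8 members, the targeted genes, up to 3 called genes per list, comparison and direction with at least 5 CPM and the smallest adjusted p, and the 2 closest genes by pattern. The text gives part of those named, and some genes of the lists are not reported here. Alternatives were RLE scaling, no scaling, DESeq2 1.42.0, limma-voom 3.58.1, other filters, sex as a covariate, females alone, fits of 2 groups, removal of the 666 antigen receptor genes, and each library left out.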

Additional observations from a re-analysis of the deposited data

Results flagged for a closer look

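Icam2 in YC had 1 library apart from the others. YC replicate 2 stood at 69.1 CPM and the other YC libraries at 56.9, 58.3 and 57.5 CPM, and its gap to the nearest of them was 0.889 of the whole range, above the critical value of 0.829 for 4 samples. Chance puts a library apart in about 1 of 20 such groups, and 13 gene levels and ratios were looked at in YC. Without this library the log2 fold change of Icam2 in pBIC10 against YC was -1.07 (edgeR adjusted p = 0.0754).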

How the results depend on the processing

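No paired analysis was possible because the labels give no replicate numbers shared between groups. The counts of genes called stayed within 1.5 times the main count in every alternative, between 3810 and 6052 in pBIC10 against pBIC, 7566 and 10241 in pBIC10 against YC, and 8331 and 10630 in pBIC against YC. The calls of Itgal and Icam1 in both comparisons of pBIC10, of Itgb2 and Itgb1 in both comparisons with YC, and of Icam2 in pBIC against YC held in every alternative run. For the values below, the cause was not tested.

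In pBIC10 against pBIC, the log2 fold change of Itga4 changed sign with limma-voom (0.06), with sex as a covariate (0.14) and among females (0.09), and that of Itgb7 with sex (0.16) and among females (0.11). Cd44 lost its call among females (-0.47) and with only the 2 groups fitted (-0.67). With 1 library left out, values lay between -0.39 and 0.17 for Itga4, -0.13 and 0.13 for Itgb7, -0.86 and -0.46 for Cd44, -0.94 and -0.33 for Itgb1, 0.38 and 1.41 for Icam2 and -0.63 and -0.22 for Itgb2, and 0 to 1 of the 8 genes was called higher. In pBIC10 against YC, Icam2 lost its call without the filter on low counts (-1.08) and among females (-1.10), and Cd44 changed sign among females (0.07). With 1 library left out, values lay between -1.17 and -1.07 for Icam2, -0.31 and 0.08 for Cd44 and -0.02 and 0.31 for Itga4. In pBIC against YC, Cd44 lost its call with sex as a covariate (0.46), which left 1 gene called higher. With 1 library left out, values lay between 0.44 and 0.60 for Cd44, -0.17 and 0.02 for Icam1, -0.03 and 0.55 for Itga4, -0.03 and 0.52 for Itgal and 0.28 and 0.62 for Itgb7, and 1 to 3 genes were called higher. The difference in log2 ratio lay between -0.63 and 0.22 for Itgal to Itgb2 in pBIC10 against YC, and for Itga4 to Itgb7 between -0.35 and 0.43 in pBIC10 against pBIC and -0.71 and 0.07 in pBIC against YC.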
